A study of Sus scrofa with 6 samples.

Results

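The complement genes examined here are CR1, C3, C1QA, C1QB, C1QC, CFB, CD46, CD55 and CD59, and they were followed in preovulatory ovarian follicles of Large White and Chinese Taihu sows. A probe set, the group of short probes that measures 1 transcript on the array, was taken for a gene when the probe table of the Affymetrix porcine array gives it that symbol and no other. By this rule 16 of the 23935 probe sets that are not controls belong to 8 of the 9 genes, out of 6765 genes with such a probe set. C1QB has no such probe set and was not analysed here. CR1, C3, C1QA and C1QC each have 1 probe set, CFB and CD59 have 2, CD46 has 3 and CD55 has 5.

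Each of the 6 arrays held the RNA of follicles over 5 mm in diameter from 1 multiparous sow, 3 Large White and 3 Chinese Taihu (named Chinese Erhualian in the labels). All sows received 1000 IU PMSG, which acts like FSH, and 500 IU hCG, which acts like LH, 80 h later, and the ovaries were taken 30 to 38 h after hCG. The breeds were kept on different farms, so breed and farm cannot be told apart. Whole follicles hold granulosa and theca cells, vessels and blood cells, and in such samples fewer cells of a type and less RNA per cell cannot be told apart. Each value is a normalized signal (brightness, linear scale) and is compared between sows for the same probe set, never between probe sets. Where 3 signals are set against 3, they are those of Large White sows 1 to 3 and then of Chinese Taihu sows 1 to 3.

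Complement is a set of plasma and cell surface proteins that mark particles and damaged cells for removal. In the classical pathway C1q, built of the chains of C1QA, C1QB and C1QC, recognizes its target. In the alternative pathway factor B (CFB) joins C3b to form the enzyme that cleaves further C3. Both routes lead to cleavage of C3, and CR1 is a receptor that binds C3b and C4b. CD46 and CD55 stop C3 convertases on the body's own cells, and CD59 stops the pore of the terminal components. Follicular fluid contains complement, and follicles around ovulation take up leukocytes.

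On the array of Chinese Taihu sow 1 many markers of the labelled tissue were low. The lowest signal of the 6 arrays lay there for 7 of 7 theca and 5 of 10 granulosa markers tested. INHA, the inhibin subunit of granulosa cells, had a signal of 446 there and of 6510 to 10684 in the other 5 sows. STAR, the cholesterol carrier of steroid-making cells, had 27.0 against 982 to 12624. Other markers went the other way or stayed level, with INHBA, an inhibin and activin subunit, at 899 against 233 to 387, and ACTA2, smooth muscle actin, at 8013 against 8386 to 10610. All 10 markers tested from the surface epithelium list had their highest signal of the 6 arrays in this sow. KRT7, MUC16, MSLN and UPK3B on that list had no probe set of their own. Which kind of epithelium the 10 stand for was not tested. Large White sow 2 was highest in 10 of 13 myeloid markers. For the complement genes named at the start, breed differences that rest on either array are given with and without it. The 9 hybridization spike-in probe sets averaged 0.940 to 1.08 times their Large White mean in Large White and 1.31 to 1.47 times in Chinese Taihu sows. The 3 prime to 5 prime signal ratio of GAPDH was 1.08 to 1.12 in Large White and 1.14 to 1.18 in Chinese Taihu sows. The part of these technical differences in the results was not tested.

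Signals above 50 on at least 3 arrays were required for a comparison of the breeds, and 14 of the 16 probe sets met this, as did 19196 probe sets in all (limma on the log2 scale, 2-sided, with p-values adjusted over all of them by Benjamini and Hochberg). Log2 differences are Chinese Taihu minus Large White. None of the 14 reached an adjusted p below 0.05 (the lowest was 0.598), as against 0.0208% of all tested probe sets. At an unadjusted p of at most 0.05, 2 of 14 were called, the CR1 probe set and 1 of CD55, both with higher signal in Chinese Taihu sows. Among all tested probe sets 3.86% were called at this level, 1.56% on the higher side. The median log2 difference of the 14 was 0.20, and that of all tested probe sets was 0.00. Of the 14, 10 were above 0 (50.3% of all tested probe sets were) and 4 below, with probe sets of 1 gene counted separately. Without Chinese Taihu sow 1, both CFB probe sets fell below 0 (-0.09 and -0.12). So did CD46 Ssc.3895.1.A1_at (-0.06) and CD59 Ssc.20559.1.A1_at (-0.12), and the 4 already below 0 stayed there. Only CR1 among the 14 had breeds without overlap, as against 9.10% of all tested probe sets, 3.98% with Chinese Taihu on the higher side. The highest signal of the 6 arrays was that of Chinese Taihu sow 1 for 6 of the 14 (23.5% of all tested probe sets), of which 1 of CD55 and 1 of CD59 were 1.03 and 1.02 times the next sow, and that of Large White sow 2 for 2 of the 14 (14.7% of all), a share like that of all probe sets.

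**Figure D1:**
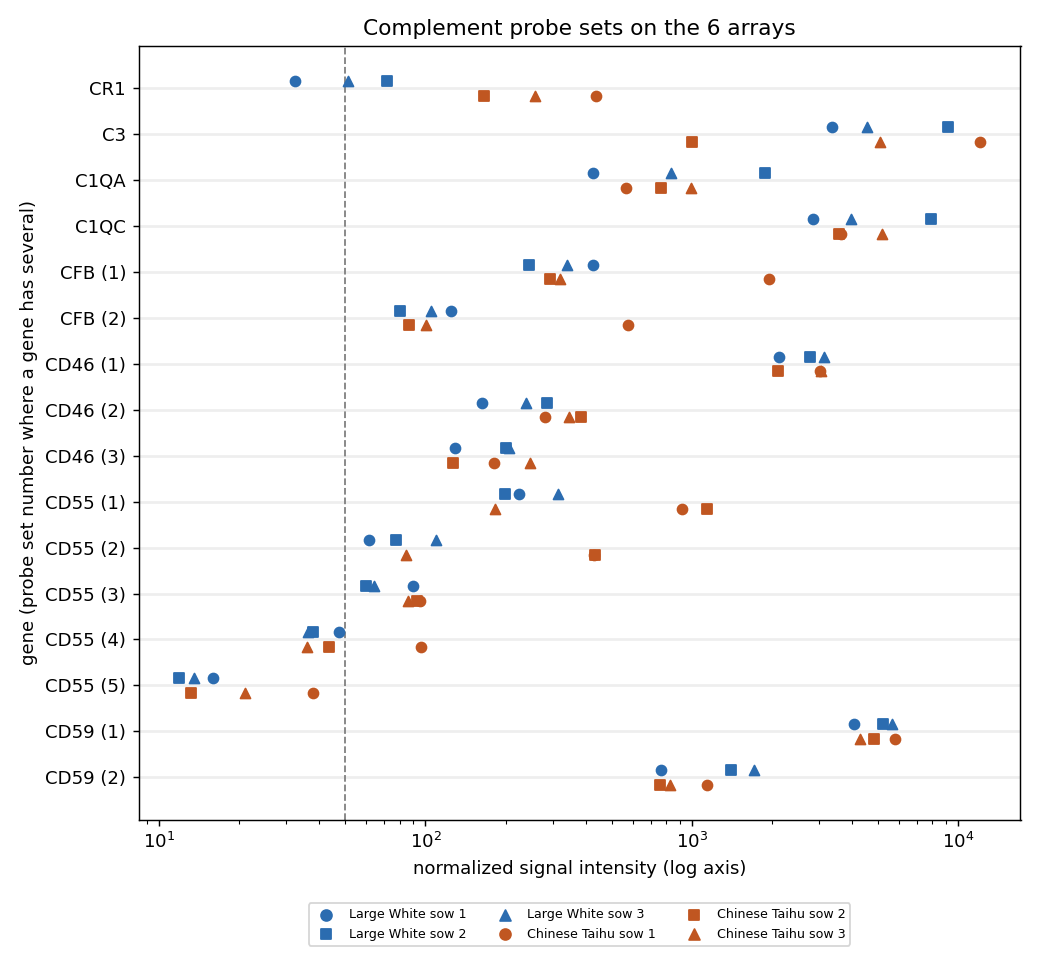
Normalized signal of the 16 complement probe sets (log axis, numbered within a gene from the highest mean signal) in each of 3 Large White and 3 Chinese Taihu sows, 1 point per array. The dashed line marks the signal of 50 used as filter; CR1 is the row in which all Chinese Taihu points (167 to 435) lie right of all Large White points (32.4 to 72.0).

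CR1, the receptor through which cells bind C3b-coated particles, had the largest log2 difference of the complement probe sets tested. Its signal (probe set Ssc.15327.1.S1_at) was 32.4, 72.0 and 51.2 against 435, 167 and 258. Each Chinese Taihu sow was above each Large White sow, and 1 of the Large White signals lay under the filter level of 50. The mean was 51.9 ± 19.8 (SD, n = 3) against 287 ± 137, or 5.53 times as high in the Chinese Taihu sows. The log2 difference was 2.43 (SE 0.43, 95% interval 1.39 to 3.47), with an unadjusted p of 0.0011 and an adjusted p of 0.598 by limma. An exact permutation test gave p = 0.1, the smallest that 3 arrays against 3 allow, and the difference did not pass the adjusted threshold.

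The CR1 difference did not rest on the array of Chinese Taihu sow 1. Without it the log2 difference was 2.07 (SE 0.38), and without both this array and Large White sow 2 it was 2.35 (SE 0.35). The probe set was on the study's own list of changed transcripts, which was drawn from these same sows, so its direction here is not independent evidence. The gene name rests on the annotation of the platform alone, since the study's tables give this probe set as an unnamed transcribed locus. Red blood cells of primates carry CR1, and of the 3 red cell markers with a usable probe set (of 10 listed), 2 had an unadjusted p of at most 0.05 with higher signal in Chinese Taihu sows, as against the 1.56% given above. The signals of each of the 3, HBB, ALAS2 and AHSP, overlapped between the breeds. Their sum, made up mostly of HBB, was 478 to 668 for Large White and 719 to 919 for Chinese Taihu sows. Among the Large White sows the order differed from that of CR1, which was highest in sow 2, where the sum was lowest. Among Chinese Taihu sows 1 to 3 the sums were 919, 719 and 882, in the same order as CR1. The summed signal of 13 myeloid markers (of 20 listed) was 6737 to 30257 for Large White and 7246 to 13565 for Chinese Taihu sows. The part of red cell or myeloid content in the CR1 result was not tested.

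Over the 6 arrays, the genes whose log2 signal was most like that of CR1 among 5763 genes were GHRL, ZNF566 and TMEM106A. GHRL, which encodes the hormone ghrelin, had a Pearson r of 0.98 and a Spearman rho of 1 with CR1, although its signal only ran from 161 to 195. ZNF566, a zinc finger protein, had r = 0.96 with signals of 131 to 168, and TMEM106A, a membrane protein, r = 0.96 with signals of 436 to 764. The rho of both was 0.94. Without the pair of arrays farthest from the CR1 median, r was 0.99, 0.97 and 0.98 over the other 4. Likeness over 6 arrays picked from so many genes is a description only.

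CD55, also called decay-accelerating factor, splits the C3 convertase on the cell surface, and its signal was high in 2 of the 3 Chinese Taihu sows. The probe set Ssc.271.1.A1_at had 61.4, 77.6 and 110 against 430, 432 and 84.2. Chinese Taihu sow 3 lay among the Large White sows, so the breeds overlapped. The log2 difference was 1.63 (SE 0.66, 95% interval 0.03 to 3.24), with an unadjusted limma p of 0.0466 and an adjusted p of 0.993. It was 1.24 without Chinese Taihu sow 1 (unadjusted p = 0.122), 1.24 without sow 2 (0.137), and 2.42 without sow 3 (0.00025). This call was also lost without Large White sow 1 (1.44, unadjusted p = 0.127), sow 2 (1.61, 0.100) or sow 3 (1.86, 0.063). With array weights in limma it was lost too (1.13, 0.112), and Ssc.7698.2.A1_at was called in its place (0.0365).

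The probe set Ssc.272.1.S1_a_at of CD55 showed the same pair of high sows, with 225, 199 and 315 against 920, 1141 and 182. Its log2 difference was 1.25 (SE 0.70, unadjusted p = 0.120 by limma), as against 0.91 without Chinese Taihu sow 1 (0.273), 0.76 without sow 2 (0.326) and 2.08 without sow 3 (0.00055). Both probe sets carry the same transcript accession in the probe table, and their log2 signals had r = 0.98 over the 6 arrays. The other CD55 probe sets did not share this pattern. Ssc.7698.2.A1_at had 90.2, 59.7 and 64.3 against 95.7, 93.0 and 86.1, a log2 difference of 0.38 (SE 0.19), and it was 0.56 without Large White sow 1 (unadjusted p = 0.0125), 0.27 without sow 2 (0.265) and 0.32 without sow 3 (0.221). Ssc.31082.1.A1_at exceeded 50 in Chinese Taihu sow 1 alone (96.3, as against 36.0 to 47.4), Ssc.7698.1.S1_at in no sow (11.9 to 37.8), and neither was tested. The high CD55 level of Chinese Taihu sows 1 and 2 was thus seen with 2 of the 5 probe sets.

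In the Sscrofa11.1 assembly CR1 and CD55 are neighbours, with the genes of C4BPA and C4BPB next to CD55 on its other side. C4BPA, the chain of C4b-binding protein that holds C4b in plasma, had 616, 1760 and 1518 against 1759, 2569 and 2999. The lowest Chinese Taihu sow and the highest Large White sow were nearly equal, and the log2 difference was 1.01 (SE 0.44, unadjusted p = 0.059, adjusted p = 0.993). It was called at the unadjusted level when Large White sow 2 or Chinese Taihu sow 1 was left out. C4BPB, the other chain, stayed between 12.7 and 36.0 and was not tested.

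CD46, the membrane cofactor through which factor I inactivates C3b and C4b, lies apart from this cluster in the assembly, and its probe sets disagreed. Ssc.14518.1.S1_at had 162, 285 and 238 against 280, 382 and 346. The lowest Chinese Taihu signal lay just under the highest Large White signal, and the log2 difference was 0.58 (SE 0.26, 95% interval -0.05 to 1.21, unadjusted p = 0.0648, adjusted p = 0.993). This probe set was also on a list of the study drawn from these sows. The study's shorter list also requires a fold change, which the ratio of means here (1.47, Chinese Taihu over Large White) does not reach. The methods' t-test gave an unadjusted p of 0.0999 here. Without Large White sow 2 the log2 difference was 0.76 (unadjusted p = 0.0371), and without Chinese Taihu sow 1 it was 0.71 (0.0485), but without Large White sow 1 it was 0.36 (0.181) and without Chinese Taihu sow 2 it was 0.48 (0.164). The other CD46 probe sets had log2 differences of 0.03 and 0.03, with intervals of -0.54 to 0.59 for Ssc.3895.1.A1_at and -0.72 to 0.78 for Ssc.26104.1.S1_at. Their signals were 2100 to 3123 and 127 to 247. These latter probe sets followed each other over the 6 arrays (r = 0.92) and not Ssc.14518.1.S1_at (r = 0.19 and 0.28).

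CD59, which blocks insertion of C9 into the membrane, had nearly the same signal in both breeds with Ssc.20559.1.A1_at. It was 4066, 5200 and 5647 against 5782, 4824 and 4283. The mean was 4971 ± 815 (SD, n = 3) against 4963 ± 759, and the 95% interval of the log2 difference ran from -0.45 to 0.45. Ssc.16055.1.S1_at had 768, 1400 and 1718 against 1142, 758 and 831, a log2 difference of -0.45 (SE 0.35, unadjusted p = 0.239). Large White sows 2 and 3 were the highest here, and without Large White sow 1 the log2 difference was -0.79 with an unadjusted p of 0.0305. It was -0.21 without Large White sow 3 (0.584) and -0.33 without Chinese Taihu sow 2 (0.442).

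**Figure D2:**
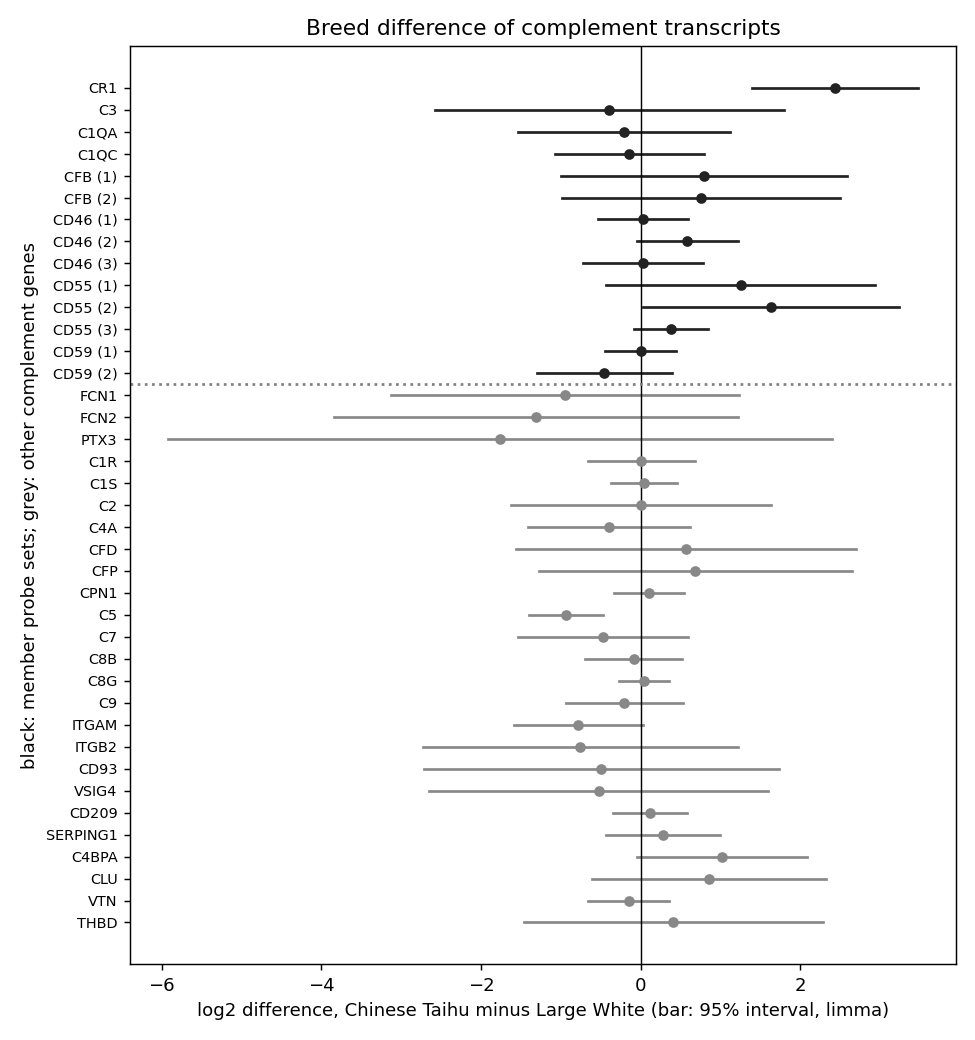
Log2 difference (x axis, Chinese Taihu minus Large White, 3 sows each) with its 95% interval from limma for the 14 complement probe sets tested (black) and 25 other complement genes (grey). The intervals of CR1 (1.39 to 3.47) and of the CD55 probe set with a difference of 1.63 lie above 0, that of C5 lies below 0, and all others include 0.

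C1q transcripts were highest in 1 Large White sow and did not separate the breeds. C1QA (Ssc.833.1.S1_at) had signals of 425, 1876 and 834 against 566, 767 and 990. C1QC (Ssc.17316.1.S1_at) had 2846, 7872 and 3969 against 3614, 3556 and 5162. Both genes were highest in Large White sow 2, next in Chinese Taihu sow 3 and lowest in Large White sow 1. Their log2 signals had r = 0.97 and rho = 0.94 over the 6 arrays, and the genes are neighbours in the assembly, with C1QB beside them. The log2 difference was -0.21 for C1QA (SE 0.55) and -0.14 for C1QC (SE 0.39), with adjusted p-values of 0.994 and 0.996. Without Large White sow 2 the sign turned, to 0.34 (SE 0.41) and 0.27 (SE 0.26).

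The C1q signal moved with the summed signal of the myeloid markers. C1q is made mainly by macrophages and dendritic cells. The 13 myeloid markers summed to 30257 for Large White sow 2, to 13565 for Chinese Taihu sow 3, to 6737 for Large White sow 1 and to 7246 to 9336 for the rest, so that the highest, the next and the lowest sow were those of C1QC. The genes closest to C1QC over the 6 arrays were FCGR3A (r = 0.998), an Fc receptor of natural killer cells and macrophages, PIP4K2A (r = 0.99), a lipid kinase, and VSIG4 (r = 0.99), a macrophage receptor that binds C3b. Their rho was 1, 1 and 0.94. Without the pair of arrays farthest from the C1QC median, r was 0.99, 0.93 and 0.88. FCGR3A, itself on the myeloid list, had 3945 in Large White sow 2 and 755 to 2126 in the others. MRC1, MARCO and CD86 on that list were not highest in Large White sow 2. MRC1 had 842 there and 1081 in Large White sow 3. MARCO had 153 and CD86 556 there, as against 200 and 794 in Chinese Taihu sow 2. The part of myeloid content in the C1q signal was not tested.

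Several other complement genes had their highest signal in Large White sow 2, and they are grouped here after their values were seen. VSIG4 had a signal of 5107 in Large White sow 2 and 541 to 2129 in the others. ITGB2, the beta chain shared by complement receptors CR3 and CR4, had 1839 against 218 to 469. FCN2 and FCN1, ficolins that start the lectin pathway, had 1482 against 80.4 to 178 and 796 against 68.6 to 87.0. The ratio to the mean of the other 5 sows was 2.62 for C1QA, 2.06 for C1QC, 4.92 for VSIG4, 6.38 for ITGB2, 13.3 for FCN2 and 9.64 for FCN1. Of the 25 other complement genes tested, 7 (28%) were highest on this array, C5 and C9 among them. Of all 6322 genes tested, 17.0% were. ITGAM, the alpha chain of CR3, had low signals of 28.9 to 85.9. Its highest was in this sow as well, but at 1.13 times that of Large White sow 3. Its other probe set stayed between 29.0 and 33.3 and was not tested. The other receptors tested were not highest in Large White sow 2. CD93 was highest in Chinese Taihu sow 2. CD209, a lectin of dendritic cells and macrophages, had 185 in Chinese Taihu sow 1 and 144 in Large White sow 2.

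C3, the central component that all routes cleave, varied more between sows than between breeds. Its signal (Ssc.61.1.S1_at) was 3358, 9114 and 4561 against 12106, 1001 and 5101. The highest and the lowest sow were both Chinese Taihu, and the highest was 12.1 times the lowest. The mean was 5678 ± 3036 (SD, n = 3) against 6069 ± 5615, and the log2 difference was -0.39 (SE 0.91, 95% interval -2.58 to 1.80, adjusted p = 0.993). Leaving out Chinese Taihu sow 1 gave -1.20, Chinese Taihu sow 2 gave 0.60 and Large White sow 2 gave 0.02. The direction thus depended on the sow left out. The theca list ran the other way at its ends. Its median log2 signal against each gene's own median was -4.62 in Chinese Taihu sow 1, where C3 was highest, and 2.02 in sow 2, where C3 was lowest.

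The genes closest to C3 over the 6 arrays were GPANK1 (r = 0.99), YIPF2 (r = 0.98), a protein of vesicle traffic, and MAL (r = 0.98), a membrane protein of epithelial cells and T cells. Their rho was 0.94, 1 and 1, and over the 4 arrays nearest the C3 median r was 0.97, 0.90 and 0.995. Their signals covered a far smaller span than C3, with 301 to 524 for GPANK1, 677 to 1110 for YIPF2 and 76.6 to 136 for MAL.

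CFB, the serine protease of the alternative pathway, was high in a single sow. The probe set Ssc.10460.1.S1_at had 424, 244 and 339 against 1941, 294 and 319. Ssc.10460.2.S1_at had 125, 80.5 and 105 against 577, 87.1 and 101. Chinese Taihu sow 1 was the highest on both, and their log2 signals followed each other over the 6 arrays (r rounds to 1). The log2 differences were 0.79 (SE 0.74) and 0.75 (SE 0.72), each with an adjusted p of 0.993, and without that sow they were -0.09 (SE 0.28) and -0.12 (SE 0.24).

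The other genes of the alternative pathway were highest in the same sow; they were grouped after their values were seen. CFD, factor D, which cleaves factor B, reached 6278 in this sow, with 573 to 1981 in the rest. CFP, properdin, which holds the convertase together, had 1008 against 112 to 198 with its brightest probe set, and 268 against 136 to 159 with another. The ratio to the mean of the other 5 sows was 5.99 for CFB, 5.43 for CFD, 6.80 for CFP and 2.62 for C3. C2, the classical pathway relative of CFB and its neighbour in the assembly, had 510 in this sow, 440 in Large White sow 2 and 127 to 169 in the others. Of the 25 other complement genes tested, 7 (28%) were highest on this array, a share near the 23.6% of all genes tested.

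The epithelial markers moved with CFB, CFD and CFP in Chinese Taihu sow 1. The summed signal of 10 surface epithelium markers (of 14 listed) was 39039 there, as against 1829 to 6641 in the other sows, and KRT8, a keratin, had 8682 against 205 to 1571. The second highest epithelial sum came from Large White sow 3, where CFB was within the range of the remaining sows. Lymphocyte markers were highest in Chinese Taihu sow 1 for 8 of 11 genes, with a summed signal of 1721 against 946 to 1253. Their part in the CFB, CFD and CFP levels was not tested.

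**Figure D3:**
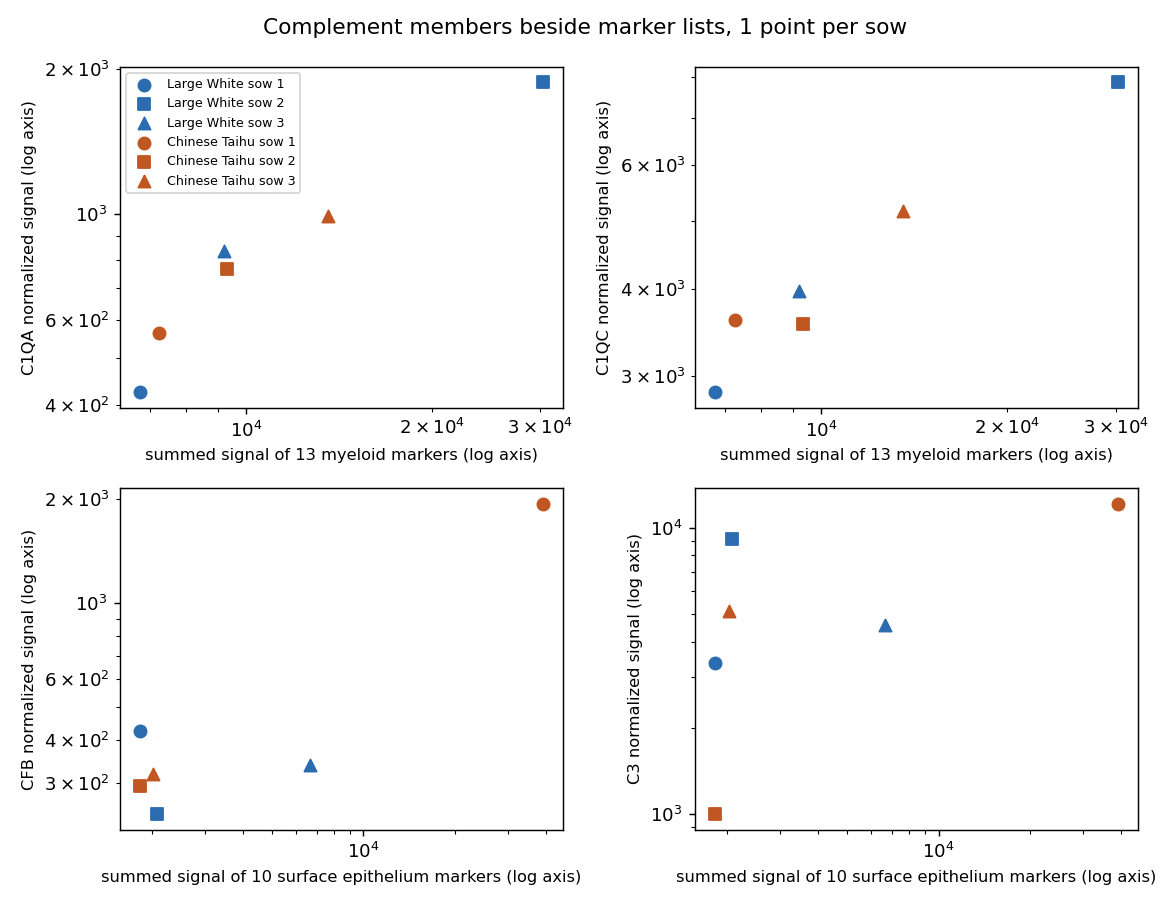
Signal of C1QA, C1QC, CFB (probe set of highest mean) and C3 (y axes, log) against the summed signal of 13 myeloid or 10 surface epithelium markers (x axes, log), 1 point per sow. Large White sow 2 is at the upper right for C1QA and C1QC, and Chinese Taihu sow 1 for CFB and C3.

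A list of 56 other complement genes was examined to set these genes in their pathway. Of these, 30 had a probe set with 1 symbol, and 25 were tested by the brightest. At an unadjusted p of at most 0.05, 1 of the 25 was called, C5, with lower signal in Chinese Taihu sows, as against 3.70% of the 6322 genes tested in this way, 2.66% on the lower side. None reached an adjusted p below 0.05 (the lowest was 0.818). The median log2 difference was -0.08, with 12 above and 13 below 0.

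C5, from which the anaphylatoxin C5a and the first part of the membrane pore are cut, had low signals of 71.1, 80.9 and 61.7 against 45.1, 31.7 and 35.3. All Chinese Taihu signals lay below 50, so the gene passed the filter through the 3 Large White arrays alone. That the breeds did not overlap follows from this and is no separate result. The log2 difference was -0.94 (SE 0.19, unadjusted p = 0.0023, adjusted p = 0.818 by limma), and with a filter of 100 in place of 50 the gene was not tested. C5 too was on a list of the study, and its ratio of means here (0.524, Chinese Taihu over Large White) does not reach the fold change of the shorter list. C7, C8B, C8G and C9, the other terminal components tested, had log2 differences of -0.47 to 0.04.

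C1R and C1S, the proteases of the C1 complex, varied less between sows than C2. C1R had a signal of 2807 to 5396 and C1S of 4336 to 6292, with log2 differences of 0.01 (SE 0.28) and 0.04 (SE 0.17). C4A, the source of C4b, was lowest in Chinese Taihu sow 1, with 1555 against 2949 to 5148. PTX3, the pentraxin of the cumulus matrix that binds C1q, showed the same sow far below the rest, with 65.6 against 2573 to 6844. Among regulators, SERPING1, the C1 inhibitor, had 3217 to 6805, and CLU, clusterin, which keeps the terminal complex out of membranes, had 2961 to 15932, both highest in Chinese Taihu sow 1. CD93 is a receptor of endothelial and myeloid cells once linked to C1q. Its brightest probe set was highest in Large White sow 1 and Chinese Taihu sow 2 (1995 and 2104, as against 280 to 698). These sows had the highest theca list medians. Another CD93 probe set ran only from 144 to 206, highest in Chinese Taihu sow 2 and next in Large White sow 1 (185).

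**Figure D4:**
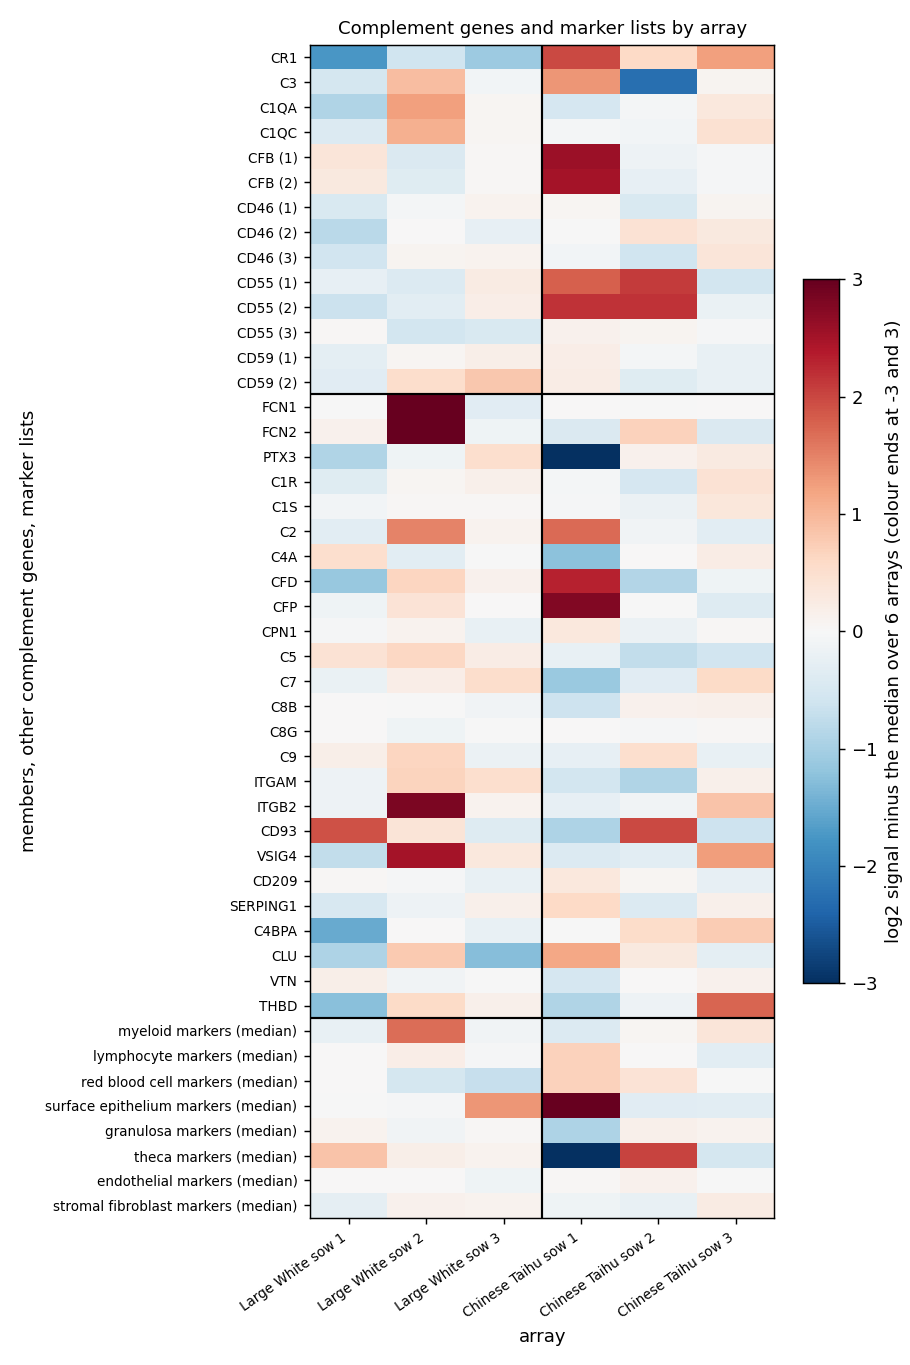
Log2 signal minus the median over the 6 arrays (colour, ending at -3 and 3) of the 14 complement probe sets, 25 other complement genes and the medians of 8 marker lists, 1 column per sow. Chinese Taihu sow 1 is dark red for CFB, CFD and CFP and Large White sow 2 for FCN1, FCN2, ITGB2 and VSIG4, while CR1 is blue in all Large White and red in all Chinese Taihu sows.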

How the data were processed

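Affymetrix porcine arrays measured follicle RNA of 3 Large White and 3 Chinese Taihu sows, grouped by the labels. The authors computed the deposited signal intensity with MAS 5.0 (MAS5 2.3.1 in the submitters' processing notes), scaled it to 500 and applied the invariant set normalization of dChip, per the study's methods. Of 24123 rows, 188 controls (AFFX, RPTR) were left out, and signals under 1 were set to 1 before log2.

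Breed was fitted with limma 3.58.1 (R 4.3.3, variance trend, 2-sided) on the 19196 probe sets above 50 on at least 3 arrays, as in the methods, which used a t-test. The fit was tested on simulated data. Intervals are 95%. Exact permutation tests of 3 against 3 cannot give p below 0.1, and the number of arrays limits the precision. Symbols came from the platform's probe table (RefSeq, Sscrofa11.1, for gene order; 0 member symbols differed). Members and lists were chosen with earlier results of these data known. Named are every member probe set and other complement genes at an unadjusted p of at most 0.05 by limma or among the 3 brightest of a role. Also named are the 3 genes most like CR1, C3 and C1QC (C1QC in place of C1QB, which has no probe set). ITGAM, CD209, CFD, CFP, C2, C8G, C4BPB and single marker genes were added after their values were seen. Sequences and present calls were not used here. Python 3.11.15 with pandas 2.3.3, numpy 2.4.6, scipy 1.17.1 and matplotlib 3.10.9 did the rest.

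Alternatives were quantile normalization, median scaling, log2(signal + 16), no filter or a level of 100, array weights, constant prior variance, a replicate block, the methods' t-test (2-sided, unpaired), each array left out, and mean signals per gene. Leaving out both Large White sow 2 and Chinese Taihu sow 1 was added after the data were seen.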

Additional observations from a re-analysis of the deposited data

How the results depend on the processing

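The CR1 log2 difference kept its sign and stayed short of the adjusted threshold under all alternatives, from 2.07 to 2.77 with unadjusted p-values of 0.00076 to 0.0096 and adjusted p-values of 0.418 to 0.9998. The count of complement probe sets at an unadjusted p of at most 0.05, 2 with limma, was 1 with the methods' t-test and 1 to 3 when single arrays were left out (1 without Large White sow 3 or Chinese Taihu sow 2). The count of other complement genes, 1 with limma, was 0 with a filter of 100, 2 with quantile normalization (C4BPA added), 2 with median scaling and with array weights (ITGAM added), 3 without both arrays that stand apart (C4BPA and CLU added), and 1 to 3 when single arrays were left out (3 without Large White sow 2, where C4BPA and CLU were added, or Chinese Taihu sow 3, where C7 and ITGAM were, and 2 without Large White sow 1 or Chinese Taihu sow 1). With a replicate block the counts were 2 and 2, with a CD46 probe set in place of CD55 and with C4BPA added. The arrays share only a number: deviations of same-numbered arrays of the breeds had correlations of -0.17, -0.14 and 0.27. Arrays with different numbers had -0.48 (Large White sow 3 with Chinese Taihu sow 2) to 0.51 (Large White sow 1 with Chinese Taihu sow 2).

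Differences of C3, C1QA, C1QC, CFB, CD46 and CD59 turned sign under some alternatives. CD59 (Ssc.20559.1.A1_at) was -0.019 with median scaling, -0.12 with array weights and -0.076 without both arrays that stand apart. Without both, C1QA was 0.55, C1QC 0.35, the CFB probe sets -0.31 and -0.29, and CD46 (Ssc.3895.1.A1_at) -0.023. When single arrays were left out, C3 ran from -1.20 to 0.60, C1QA from -0.73 to 0.34, C1QC from -0.47 to 0.27, CFB from -0.094 to 1.27 and -0.12 to 1.24, CD46 from -0.13 to 0.20 (Ssc.3895.1.A1_at) and -0.21 to 0.27 (Ssc.26104.1.S1_at), and CD59 from -0.14 to 0.10. Signals near 50, as for CR1 in Large White and C5 in Chinese Taihu sows, lie close to the filter level, and background was not measured here.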
